A study of Caenorhabditis elegans with 2 samples.

Results

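Intronic summits were the points of strongest NFYB-1 signal that lay inside a protein-coding gene, in none of its exons, and away from gene starts. A summit was a member when it lay outside every promoter window (500 bp upstream to 200 bp downstream of any annotated start of a protein-coding gene), over 100 bp from any tRNA gene, within the span of a protein-coding gene and in no exon of one. The rule used position alone. It gave 686 of the 3879 nuclear summits of the authors' stricter list for the whole series, or 17.7% (95% exact interval 16.5 to 18.9). Bases that could hold a member under the same rule made up 29.5% of the nuclear genome.

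The data came from chromatin immunoprecipitation and sequencing of Caenorhabditis elegans in 2 biological replicates of 1 group, with no other condition. The animals were whole young adults of strain RW12190, aged 65 hours and synchronised by starving newly hatched larvae. Their own nfyb-1 gene carried TY1, EGFP and 3xFLAG tags inserted by CRISPR, and an antibody against GFP was used on sonicated chromatin. Every tissue was mixed, so no region can be assigned to a cell type, and an untagged strain was not used here. Read depth is unknown for either replicate.

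NFYB-1 is the B subunit of NF-Y, a trimeric transcription factor. In animals the B and C subunits form a histone-like dimer that contacts DNA through its backbone, and the A subunit reads the CCAAT box in the minor groove. NF-Y is best known from promoters, where its box lies a short way upstream of the start, so summits deep inside genes are a less familiar setting. In worms NF-Y has been linked to the control of Hox and T-box genes and to mitochondrial function.

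The extended NF-Y box, defined here as CCAAT preceded by 2 purines and followed by C or G and then a purine, was present at a larger share of intronic summits than of any other class of place. The 8 boxed members of highest signal are shown first because their letters recur. Sequences are from the RefSeq copy of WBcel235, the same assembly as the ce11 of the deposited files, on the plus strand, and capitals mark each extended box.
ced-7 (III:9571014-9571087): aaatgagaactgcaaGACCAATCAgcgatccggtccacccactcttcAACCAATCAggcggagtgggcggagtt
egl-18 (IV:1904396-1904481): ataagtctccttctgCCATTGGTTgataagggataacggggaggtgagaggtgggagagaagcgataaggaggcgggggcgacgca
pptr-1 (V:16361493-16361599): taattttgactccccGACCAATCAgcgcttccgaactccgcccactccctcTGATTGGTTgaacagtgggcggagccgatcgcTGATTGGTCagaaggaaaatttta
plc-4 (IV:7510983-7511081): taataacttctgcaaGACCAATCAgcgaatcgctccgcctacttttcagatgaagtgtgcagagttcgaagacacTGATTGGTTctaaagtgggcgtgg
mtm-3 (III:3791022-3791101): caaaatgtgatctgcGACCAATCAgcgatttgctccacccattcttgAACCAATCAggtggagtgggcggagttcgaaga
clc-31 (II:341442-341519): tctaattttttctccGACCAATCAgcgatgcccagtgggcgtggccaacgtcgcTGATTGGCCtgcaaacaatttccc
srt-47 (IV:15049838-15049945): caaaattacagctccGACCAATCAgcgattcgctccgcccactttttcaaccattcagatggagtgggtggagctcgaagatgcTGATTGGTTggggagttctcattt
W03C9.2 (II:11963403-11963478): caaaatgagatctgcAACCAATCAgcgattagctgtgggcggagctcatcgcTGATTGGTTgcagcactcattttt

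All 8 regions overlapped the thresholded list of each replicate. The highest, in the last intron of ced-7, an ABC transporter gene needed to engulf dying cells, had a signal of 1032 in the whole-series list, and 485 and 541 in replicates 1 and 2. Signals are the peak caller's own values, whose scale is not stated, and the whole-series list and the replicates are on different scales. The region in the 11092 bp first intron of egl-18, a GATA-factor gene, followed at 565, with 251 and 320.1 in the replicates. It held 1 box, 51 bp from its summit, and was the only one of the 8 with fewer than 2 boxes.

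The region in pptr-1, which encodes a regulatory subunit of protein phosphatase 2A, had 3 boxes, a signal of 546, and 253 and 277 in the replicates. Next came plc-4, a phospholipase C gene, at 537 (259 and 283 in the replicates), and mtm-3, a lipid phosphatase gene, at 484 (247 and 252). Both held 2 boxes. In these 3 regions the replicates lay close together beside the gap to the median member, which had 57.8 in replicate 1 and 68.1 in replicate 2.

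The claudin-family gene clc-31 gave 417 (195 and 218 in the replicates), the chemoreceptor gene srt-47 356 (165 and 172), and W03C9.2, which has no described function here, 355 (151 and 212). The boxes of these regions stood in introns of 318 to 1103 bp, apart from that of egl-18. The hosts differ in known function, while the letters of their regions recur.

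The extended box lay within 100 bp of 141 of the 686 intronic summits (20.6%, 95% exact interval 17.6 to 23.8), where the share over all nuclear summits was 8.38%. Windows of the same width 500 bp to the left and right of the same summits held it in 3.35% and 2.77% (larger adjusted exact McNemar p = 1.03e-25, two-sided, adjusted over 3 motifs). Among windows tiled over all eligible intron, 1.83% held it. The tests here compare regions within 1 list and are not tests over replicates.

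The box share was also higher than in each of the other classes tested. The box was at 141 of 686 intronic summits, against 63 of 1365 promoter summits (4.62%, odds ratio 5.35, adjusted exact p = 1.89e-27). Exonic summits held it in 37 of 564 (6.56%, odds ratio 3.68, adjusted exact p = 5.65e-13). Intergenic summits held it in 76 of 1007 (7.55%, odds ratio 3.17, adjusted exact p = 1.24e-14). These were two-sided Fisher's exact tests adjusted over 3 classes. They count every region as independent, while many boxed members share recurring letters. At tRNA summits the share was 8 of 257 (3.11%), which was not tested.

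Every extended box contains CCAAT, so the 313 intronic summits with CCAAT include all 141 boxed ones. CCAAT outside the box was not tested on its own, so the CCAAT values below are not a result separate from the box. Counted in or outside a box, CCAAT was at 45.6% of intronic summits, beside 45.2% of exonic and 36.9% of all nuclear summits. Windows tiled over all eligible intron held it in 34.9%. The flanks of the intronic summits held it in 36.6% and 32.4% (larger adjusted exact McNemar p = 5.11e-04). With the members whose windows share no 30-base stretch with another part of the genome, a setting chosen after seeing the data, that difference did not pass (43.3% against 37.3% and 29.8%, larger adjusted exact McNemar p = 0.0647). CGCGC, a pentamer common over the whole list, was at 27.3% of intronic summits, against 9.91% and 10.1% in the flanks (larger adjusted exact McNemar p = 6.40e-17), beside 25.3% of all nuclear summits. Mean GC content was 44.5% in the members' summit windows, against 36.1% in their flanks and 33.7% in the tiled windows, and its part in these differences was not tested.

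**Figure D1:**
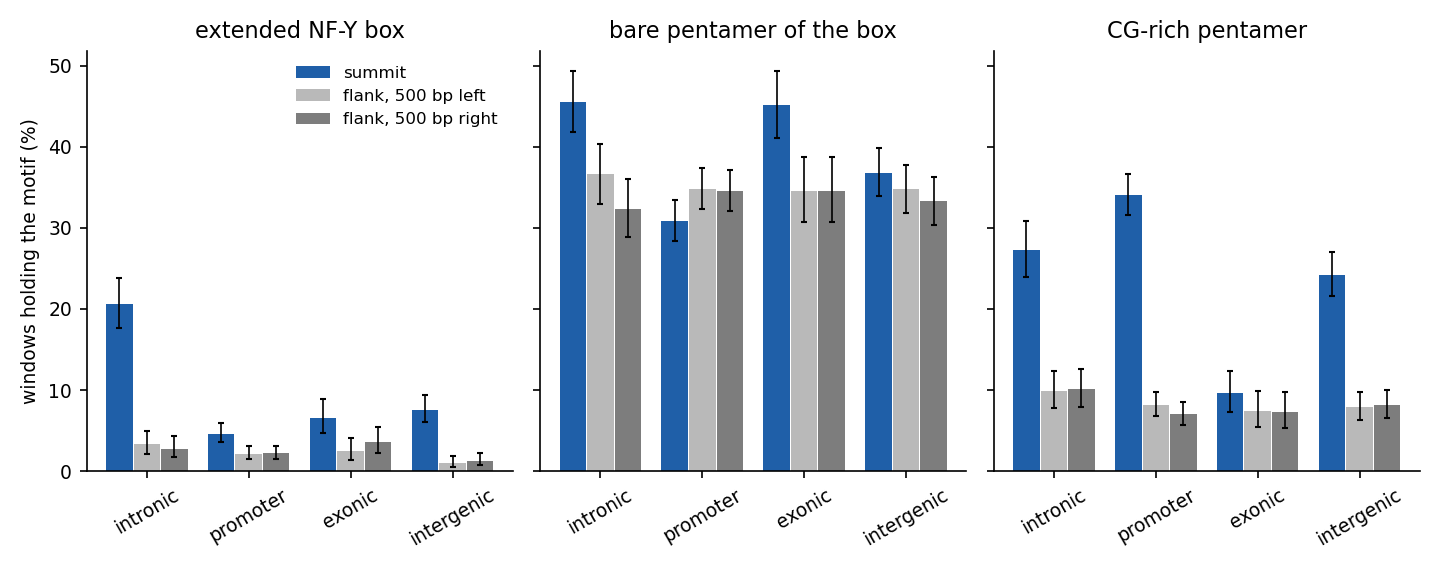
Share of windows of 100 bp either side that hold each of 3 motifs, at the summit (blue) and 500 bp to its left and right (greys), for 686 intronic, 1365 promoter, 564 exonic and 1007 intergenic summits. The left panel shows the extended box (20.6% at intronic summits), the middle panel CCAAT and the right panel CGCGC, and bars are 95% exact binomial intervals.

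Most boxed members held several boxes. Of the 141, 37 held 1 box, 55 held 2, 36 held 3, 10 held 4, 2 held 5 and 1 held 6, which gave 311 boxes in all. Members with 2 or more boxes made up 15.2% of intronic summits (104 of 686), against 0.806% of promoter summits (11 of 1365), 2.48% of exonic summits (14 of 564) and 3.57% of intergenic summits (36 of 1007). This count was chosen after seeing the data and was not tested.

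The boxes sat close to the summits, and most neighbouring pairs lay at a few recurring distances. The nearest box centre lay a median of 14.0 bp from the summit, and within 50 bp in 128 of the 141 boxed members (90.8%). Of 170 neighbouring pairs, 64 had their centres exactly 32 bp apart, and all 64 lay on the same strand. Another 28 pairs lay 36 bp apart and 10 lay 39 bp apart, and all of those were on opposite strands with the boxes facing each other. These 3 distances covered 60.0% of the pairs, and the rest lay 10 to 100 bp apart.

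**Figure D2:**
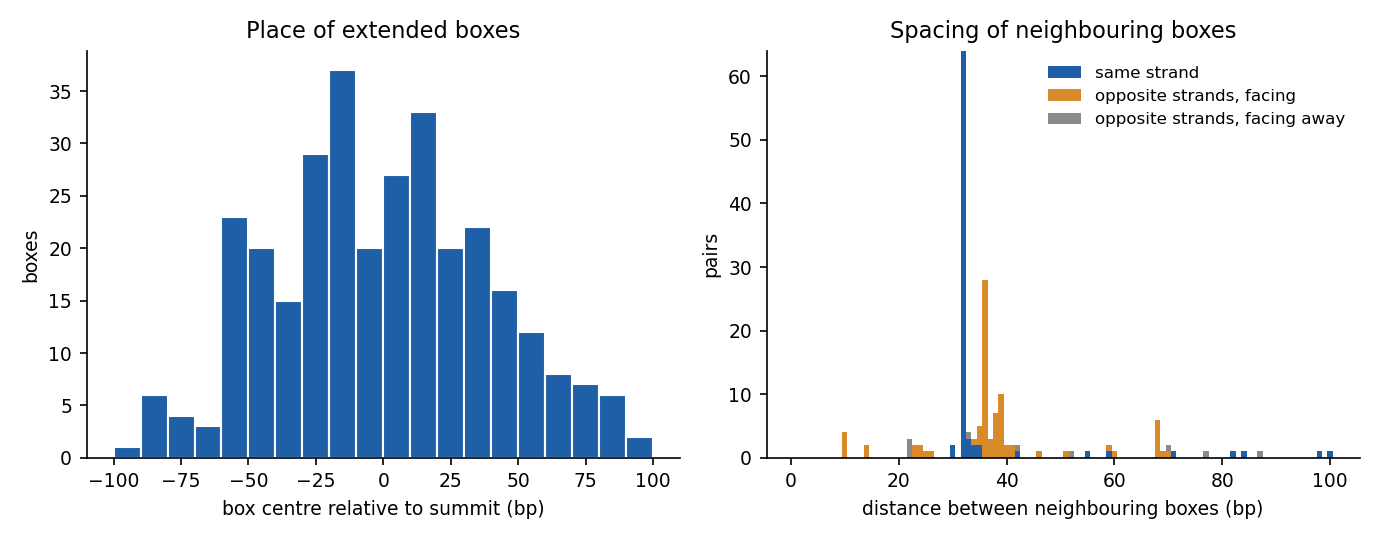
Left, the centres of the 311 extended boxes relative to the summit of their member, in bins of 10 bp. Right, distances between neighbouring boxes in 170 pairs by strand, with peaks at 32 bp on the same strand (64 pairs) and at 36 bp on facing strands (28 pairs).

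The letters beside the boxes were shared too. AATCAGCG on either strand, which overlaps the end of the box in 7 of the 8 printed regions, was in the windows of 99 of 141 boxed members (70.2%) and 3 of 545 unboxed members (0.550%). It was in 0.667% of the tiled windows of eligible intron. Its letters AATCA lie inside the box in those 7 printed regions. The contrasts with unboxed members and tiled windows therefore follow in part from the box itself. CCGCCCA on either strand, which holds no CCAAT and can overlap a box only at its end, was at 75 boxed members (53.2%), against 21 unboxed ones (3.85%). Flanks of the boxed members held it in 6.38% and 7.09%, and tiled windows in 1.69%. CACGCCC was at 34 boxed members (24.1%), in 0 of 141 windows on either flank and in 0.622% of tiled windows. One or both of these strings were at 93 of the 104 members with 2 or more boxes (89.4%), against 12 of the 37 members with 1 box (32.4%). All of these strings were picked from the printed sequences and carry no test.

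Despite the recurring letters, few boxed windows consisted mostly of exactly repeated 30-base stretches. The median boxed member shared 0.581% of its 30-base stretches with other parts of the nuclear genome, and 2 of 141 windows had over 50% of them repeated. Among unboxed members the median was 0 and 55 of 545 windows had over 50% repeated. With 2 or more boxes the median was 2.33%. No stretch was repeated at 68 of the 141 boxed members, against 398 of the 545 unboxed ones. Only exact matches were counted, so copies that differ in some letters were missed, and no repeat family was assigned. The treatment of reads with several matching positions is not given in the sources used here.

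Which strand of the host gene carried the box showed no detectable preference. The box nearest the summit read along the host's own strand in 72 of 141 members (exact binomial p = 0.866, two-sided).

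The same boxes occurred at many places in introns that held no summit. Boxes no more than 50 bp apart were counted as 1 place, a definition chosen after seeing the data. Of 1959 intronic places with 1 box, 62 had a summit within 100 bp (3.16%, 95% exact interval 2.43 to 4.04), where the share over all places with 1 box in the genome was 1.96%. Lone boxes in promoters had a summit at 55 of 1537 places (3.58%, 2.71 to 4.63), and those in exons at 30 of 4150 (0.723%). Of 257 intronic places with 2 boxes, 56 had a summit (21.8%, 16.9 to 27.3), as did 36 of 116 with 3 boxes (31.0%, 22.8 to 40.3) and 9 of 24 with 4 or more (37.5%, 18.8 to 59.4). Over all places with 2 or more boxes the genome's share was 22.0%, and it was 25.4% in introns (101 of 397) and 19.0% between genes (35 of 184).

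The share was several times higher at clustered than at lone boxes in introns, but most clustered places held no summit in this list. The intronic share for 2 or more boxes was 27.7% in the authors' other whole-series list, and 17.4% and 13.1% in the lists of replicate 2 and replicate 1 alone. In those single lists the intergenic share was 15.2% and 10.9%, and the share at lone intronic boxes 2.19% and 2.09%, in the same order. Intervals of intronic and intergenic places in the main list overlapped at 2, 3 and 4 or more boxes, and did not at lone boxes. At lone boxes the intervals of intronic and promoter places overlapped. These intervals count every place as independent, while 1 summit can count at 2 neighbouring places and many places share recurring letters.

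**Figure D3:**
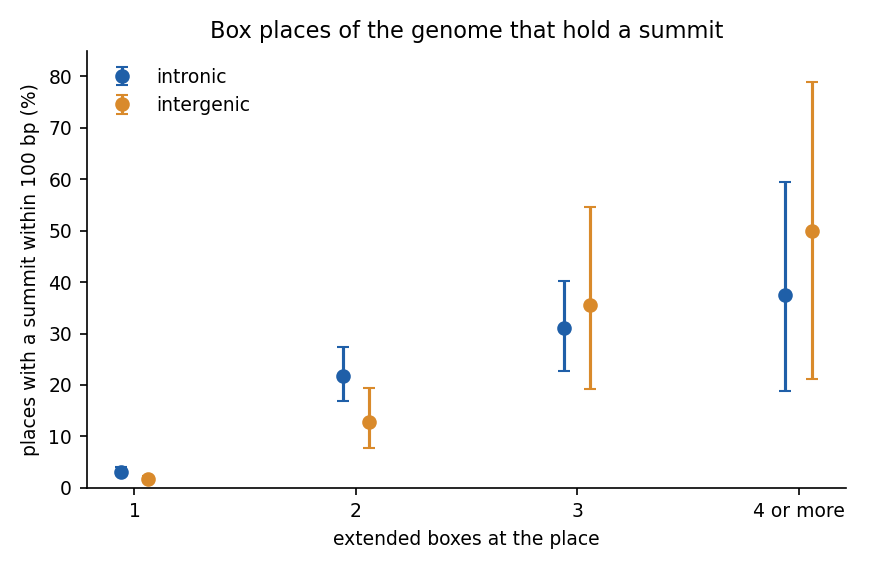
Share of places in the genome with a summit within 100 bp, by the number of extended boxes at the place, for intronic (blue) and intergenic (orange) places, with 95% exact binomial intervals. The share was 3.16% at intronic places with 1 box and 37.5% at those with 4 or more.

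Clustered places without a summit carried the same strings at lower shares. CCGCCCA or CACGCCC was at 90 of the 101 intronic places with a summit (89.1%), against 194 of the 296 without (65.5%). AATCAGCG was at 88 (87.1%) with a summit, against 209 (70.6%) without. Boxes at any of the 3 commonest distances were at 79 of 101 places with a summit (78.2%), against 205 of 296 without (69.3%). Median GC content was 40.8% at places with a summit against 39.1% without, and the median intron length 899 bp with a summit against 852 bp without. Over 50% of the 30-base stretches were repeated at 0 of the 101 places with a summit, against 26 of the 296 without. None of these measures was tested.

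Places without a summit in the thresholded list often had weaker signal. Of the 296, 89 had a region within 100 bp in the full ranked list of both replicates (30.1%), where 4.93% of tiled windows of eligible intron did. A region in the ranked list of at least 1 replicate was near 165 of them (55.7%), where 19.9% of tiled windows did. The ranked lists hold 56113 and 78104 regions, most of them not reproducible by the authors' threshold.

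Clustered boxes were spread unevenly over the chromosomes. Chromosome III held 146 intronic places with 2 or more boxes, or 30.3 per Mb of eligible intron, and 42 of them had a summit (28.8%). Chromosomes I, II, IV and V held 11.1 to 14.4 places per Mb, of which 16.1% to 32.6% had a summit. The X chromosome held 2 places, or 0.409 per Mb, and neither had a summit.

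Boxed members were also densest on chromosome III and sparsest on X. There were 51 boxed members on chromosome III (10.6 per Mb) and 2 on X (0.409 per Mb), with 2.98 to 5.30 per Mb elsewhere. Unboxed members varied less, with 25.3 per Mb on III, 22.4 on II, and 15.3 to 17.3 on the other 4 chromosomes. Chromosome III thus had the most intronic summits with and without a box, while X had few boxed members and an unboxed density within the range of the other chromosomes.

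Long introns held more summits per base. Introns of up to 200 bp had 42 summits, or 11.2 per Mb of eligible intron. The density was 18.7 to 22.0 per Mb in the bins between 201 and 2000 bp, then 32.0 in introns of 2001 to 5000 bp and 37.5 in introns over 5000 bp. The increase came from unboxed members, at 9.06 per Mb in the shortest bin and 33.5 in the longest. Boxed members had their highest density in introns of 201 to 500 bp (6.51 per Mb) and stood at 4.02 in introns over 5000 bp.

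The first intron of a transcript was the place of 219 members (31.9%), at 31.0 per Mb, against 20.7 per Mb in all later introns. First introns are often long, and length moved with rank. Up to 1000 bp the density was 18.5 per Mb in first introns and 17.8 in later ones. Between 1001 and 5000 bp it was 36.3 in first introns against 22.1 in later ones, and over 5000 bp 39.3 in first introns against 35.7 in later ones. These densities are descriptions with no test.

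The extended box was at 36 of 219 summits in first introns (16.4%), against 105 of 467 in later ones (22.5%, odds ratio 0.678, exact p = 0.0691, two-sided Fisher's test). That difference did not pass. It did with a motif window of 50 bp (25 of 219 against 99 of 467, exact p = 0.00193), and with the authors' second whole-series list (38 of 243 against 113 of 503, exact p = 0.0324). Among regions in both replicates' lists it did not (15 of 65 against 40 of 144, exact p = 0.503). Among members with no repeated 30-base stretch, a setting chosen after seeing the data, the shares were close (25 of 177 against 43 of 289, exact p = 0.893).

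**Figure D4:**
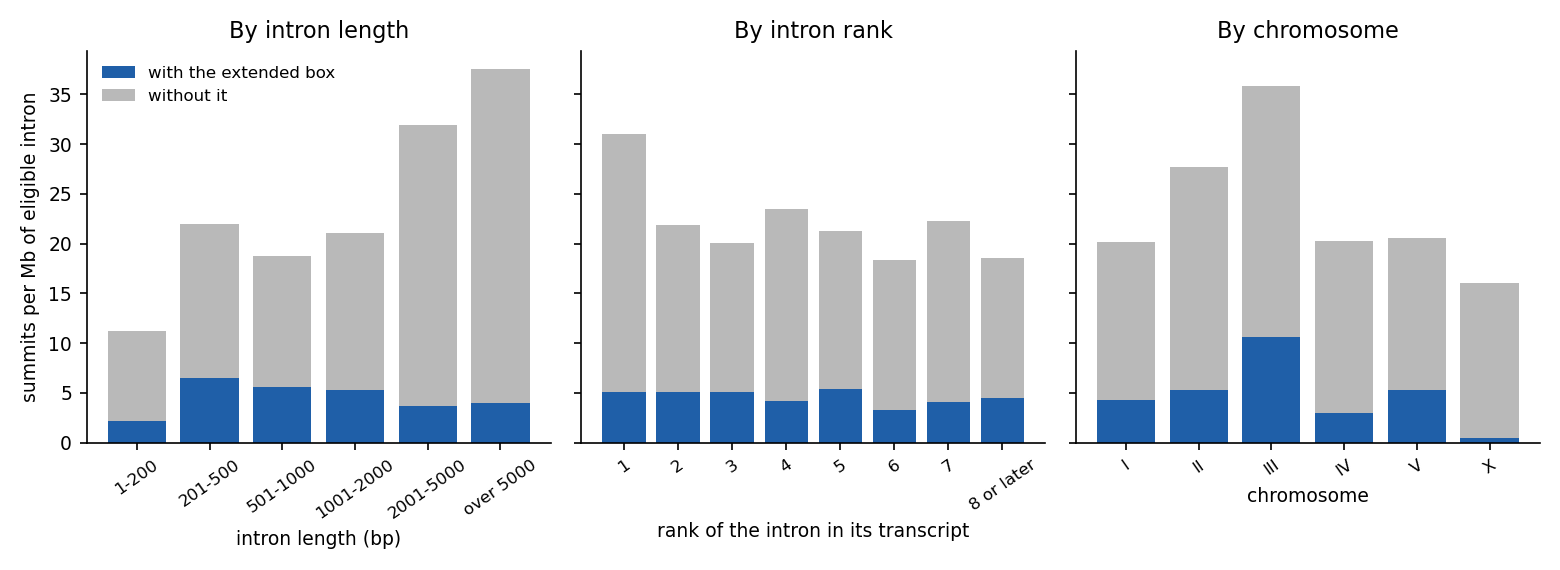
Intronic summits per Mb of eligible intron by intron length in bp, by the rank of the intron in its transcript and by chromosome, with boxed members in blue and unboxed ones in grey. The whole bar reaches 37.5 in introns over 5000 bp, 31.0 in first introns and 35.9 on chromosome III.

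Few members lay close to an exon. The median member was in an intron of 1435 bp (quartiles 575 and 4187), 317 bp from the nearest protein-coding exon and 1417 bp from the nearest start of any protein-coding gene. Only 76 members (11.1%) lay within 50 bp of an exon, where 21.3% of eligible bases did. That comparison was not matched for intron length. From the 5′ end of the intron the median position was 49.2% of its length (quartiles 27.3% and 72.5%), near an even spread along it. A later start of the same gene lay downstream of 267 members (38.9%), within 1000 bp for 65 (9.48%).

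Some members sat just past the promoter limit. The nearest outside were in sma-9, tent-5 and mboa-2, at 501, 534 and 536 bp upstream of a start of the same gene. Their signals were 6.12, 112 and 116. The nearest inside were intronic summits 496, 487 and 485 bp upstream of starts of ncs-2, uba-1 and D2096.6, with signals of 103, 118 and 99.2. None of these 6 held the extended box. In all, 211 of the 1365 promoter summits lay in an intron.

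Intronic summits were less often strong than promoter summits and more often than exonic ones. The top signal class, the 25.0% of all nuclear summits with the highest values, took in 158 of 686 intronic summits (23.0%), against 394 of 1365 promoter summits (28.9%, odds ratio 0.737, adjusted exact p = 0.00772). Exonic summits had 46 of 564 there (8.16%, odds ratio 3.37, adjusted exact p = 1.23e-12), and intergenic ones 260 of 1007 (25.8%, odds ratio 0.860, adjusted exact p = 0.207). The promoter difference did not pass among regions with the highest score of 1000 (adjusted exact p = 0.400), among regions in both replicates' lists (adjusted exact p = 0.928) or in the list of replicate 2 alone (adjusted exact p = 0.0516). Nor did it pass among summits of both classes with no repeated 30-base stretch (105 of 466 against 323 of 1187, adjusted exact p = 0.0797). Without the summits of both classes within 100 bp of a non-coding gene, the difference from intergenic summits passed (102 of 575 against 193 of 797, adjusted exact p = 0.00417). These last 2 settings were chosen after seeing the data.

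Both replicates' thresholded lists overlapped 209 intronic summits (30.5%), where the share over all nuclear summits was 33.0%. Promoter summits had 511 of 1365 (37.4%, odds ratio 0.732, adjusted exact p = 0.00300), exonic ones 76 of 564 (13.5%, odds ratio 2.81, adjusted exact p = 1.38e-12) and intergenic ones 343 of 1007 (34.1%, odds ratio 0.848, adjusted exact p = 0.126). The list of replicate 1 overlapped 259 members and that of replicate 2 overlapped 323, and 313 overlapped neither. At a score of 1000 the difference from promoters did not pass (adjusted exact p = 0.423). The intergenic difference passed in the other whole-series list (212 of 746 against 343 of 1028, adjusted exact p = 0.0293).

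A ranked region lay under 680 members in both replicates. Replicate 2 was higher at 519 of them, with a median log2 ratio of replicate 2 over replicate 1 of 0.24. Across these 680 regions, which share their libraries, Spearman's rho was 0.629.

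**Figure D5:**
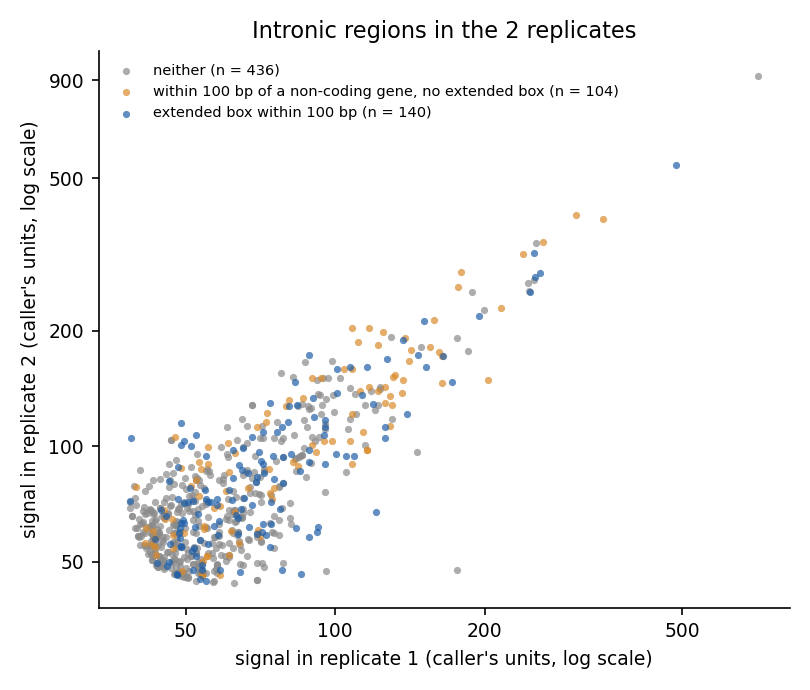
Signal of 680 intronic regions in replicate 1 and replicate 2 in the caller's units, both on log scales, with members holding the extended box in blue, other members within 100 bp of a non-coding gene in orange, and the rest in grey. The highest point is the mdt-26 region at 712 and 924, and the highest blue point is ced-7 at 485 and 541.

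Boxed members were not shown to be more often in the top signal class than unboxed ones. The top signal class took in 38 of 141 boxed members (27.0%), against 120 of 545 unboxed members (22.0%, odds ratio 1.31, exact p = 0.219, two-sided Fisher's test). Median signal was 146 in boxed members (quartiles 115 and 187) and 115 in unboxed ones (98.2 and 162). Both replicates' lists overlapped 55 of 141 boxed members (39.0%), against 154 of 545 unboxed ones (28.3%). The medians and this overlap were not tested. Without members within 100 bp of a non-coding gene the shares were 35 of 134 boxed against 67 of 441 unboxed (exact p = 0.00634), and with only deep intronic members, at least 50 bp from exons and over 100 bp from non-coding genes, 35 of 128 against 65 of 377 (exact p = 0.0151). Among regions in both replicates' lists the sign turned, at 37 of 55 boxed against 112 of 154 unboxed (exact p = 0.489).

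Very low signals came from shoulders of stronger regions. The lowest members had 2.50, and all 28 members under 50 overlapped a region of higher signal. In all 36 members did so (5.25%), where the share over all nuclear summits was 6.16%. The highest member of all, in the second intron of mdt-26, a Mediator subunit gene, was also such a region (II:5661539-5662234, 1578 in the whole-series list, 712 and 924 in the replicates).

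Introns of worm genes often house small RNA genes, and 111 members (16.2%) lay within 100 bp of a non-coding gene other than tRNA, where 17.3% of all nuclear summits did. Of the eligible intronic bases, 5.36% lay that near. These members had a median signal of 180.1, against 112 for the 441 members with neither such a gene nor the extended box. The top signal class took in 56 of them (50.5%), and 61 (55.0%) were in both replicates' lists. Only 7 held the extended box.

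The nearest genes were mostly annotated as ncRNA (72 members), snoRNA (31) and snRNA (17), and 1 member can be near several. The snoRNA genes, which guide modification of ribosomal RNA, had a median signal of 256 and 28 of 31 members in both replicates' lists (90.3%). The snRNA members had a median of 187 and 10 of 17 in both lists (58.8%). The ncRNA members had 149 and 32 of 72 (44.4%). The other kinds were pseudogenes (6 members), antisense RNA (5), miRNA (3) and piRNA (2). Kind of RNA gene was not tested.

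The 6 strongest of these members show what the group holds. The region in intron 17 of pxn-1, a peroxidasin gene of the extracellular matrix, lay by the snoRNA gene ZK994.7 (V:8500415-8500694, 757, with 347 and 392 in the replicates). That in intron 4 of frm-7, a FERM-domain gene, lay by the snoRNA genes C51F7.3 and C51F7.4 (V:12303484-12303780, 708, with 306 and 401). In ints-8, which encodes a subunit of the Integrator complex, the region lay by rpr-1, the RNA of ribonuclease P, at 613 (262 and 342). In dhc-4, a dynein heavy chain gene, it lay by the snRNA gene R07E5.16 (III:10989528-10989803, 573, with 239 and 318), and 40.7% of the 30-base stretches of its window occurred elsewhere. F58G1.7 housed a region by sup-6, annotated as an snRNA (II:12944550-12945096, 478, with 179 and 284). The cuticlin-like gene cutl-18 housed one by the snoRNA gene T03F7.8 (V:11314095-11314324, 457, with 216 and 230). None of the 6 held the extended box.

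The rest of the 15 strongest members found in both replicates' lists had neither a box nor a non-coding gene. They lay in mdt-26; in mom-1, which encodes the Porcupine enzyme that acylates Wnt ligands (X:6296391-6296700, 614, with 254 and 338 in the replicates); and in cmk-1, a calmodulin-dependent kinase gene (IV:1831301-1831478, 533, with 252 and 271). At cmk-1, 69.8% of the 30-base stretches of the window occurred elsewhere. The other two were in Y41G9A.17 (X:2996981-2997192, 525, with 245 and 266) and epg-9, an autophagy gene related to Atg101 (IV:2602015-2602333, 485, with 246 and 254). CGCGC was in the windows at mdt-26, mom-1 and Y41G9A.17.

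The 686 summits lay in 518 host genes, or 2.81% of the 18408 protein-coding genes with eligible intronic bases. Of these hosts, 408 had 1 summit, 74 had 2 and 36 had 3 or more. The most were in ppfr-1, a regulatory subunit gene of protein phosphatase 4, with 7 summits of signal 115 to 366 in 2 introns and no box. The kinase gene mnk-1 had 6 summits in only 6454 eligible bp (signal 41.1 to 247), and aakg-1, a gamma subunit gene of AMP-activated kinase, had 6 in 30707 bp, 1 of them boxed (8.43 to 247).

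There were 5 summits each in daf-2, the insulin receptor gene (7.38 to 145, 3 boxed), let-526, an ARID-domain chromatin gene (18.1 to 251), pqn-41, a polyglutamine-protein gene (93.7 to 343), and zfp-1, a zinc finger gene related to human AF10 (123 to 261). The last 3 had no box. The low ends of mnk-1, aakg-1, daf-2 and let-526 are regions that overlap a stronger one. Hosts with 4 were daf-5, a Ski-related gene of TGF-beta signalling (60.8 to 239, 2 boxed), pkg-2, a cyclic GMP kinase gene (50.1 to 234), sos-1, the Ras exchange factor gene (83.5 to 179, 2 boxed), and tir-1, the SARM1 gene (98.8 to 272, 2 boxed).

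The 25 hosts with 3 summits included the stress and longevity factor genes daf-16 (93.9 to 114) and skn-1 (116 to 136), both without a box, and the developmental timing gene lin-14 (104 to 191). All 3 summits were boxed in the potassium channel gene unc-103 (114 to 136) and in Y75B8A.7 (94.4 to 209), and 2 of 3 in mtm-3 (153 to 484). The strongest summits of the other hosts lay between 97.2 and 452. These were the glutamate receptor gene glr-2, the anion exchanger genes abts-1 and abts-4, the CREB-related gene crh-2, the phosphatase gene vhp-1, the galectin gene lec-12, the ubiquilin gene ubql-1, the proton pump gene vha-11, the TGF-beta cofactor gene sma-9, and ncl-1, unk-1, rhgf-3, trip-4, F09A5.3, M01H9.3, Y105C5A.15, Y111B2A.12, Y43F8B.2 and Y56A3A.7. Of all 36 hosts with 3 or more summits, 25 carried no box at any of them. Some hosts reach 3 summits only by counting a region that overlaps a stronger one. These are the lowest summits of ubql-1 (3.92), sma-9 (6.12), vha-11 (9.40), lec-12 (12.3), Y105C5A.15 (13.4) and rhgf-3 (15.7).

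Host genes were also read in 8 lists, against the 2.81% of all eligible genes that hosted a summit and 23.2 summits per Mb. Each list is a choice of 30 to 55 gene symbols and not a whole family, so hosts outside the lists are not counted in them, and a summit called strongest below is so among the listed genes alone. Genes with much intron have more room, so the summits per Mb stand beside each count, and no list was tested. Listed signalling genes of the insulin, TGF-beta, Wnt, Notch and Ras pathways had 10 of 55 hosts (18.2%) with 24 summits, or 83.6 per Mb, 9 of them boxed. The 3 strongest in the list were in daf-5 (239, with 96.0 and 133 in the replicates), mpk-1, the ERK kinase gene (229, with 90.3 and 134), and daf-14, a Smad gene (192, with 75.1 and 105). Other hosts were daf-2, sos-1, daf-16, sma-9, lag-1, pdk-1 and rict-1.

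The listed nuclear hormone receptor genes had 6 of 30 hosts (20.0%) with 9 summits, or 73.5 per Mb. The strongest in the list lay in daf-12, the receptor for dafachronic acid (174, with 46.7 and 104 in the replicates), nhr-46 (158, with 78.3 and 80.4, 2 boxes) and nhr-48 (112, with 50.5 and 52.8). None of these 3 was in the thresholded lists of both replicates, and the replicates at daf-12 lay far apart. The others were nhr-25, nhr-80 and nhr-88.

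The listed chromatin regulators had 2 of 49 hosts (4.08%), zfp-1 and lin-59, with 7 summits or 49.5 per Mb. The 3 strongest in the list were all in zfp-1, at 261 (96.6 and 151 in the replicates), 249 (122 and 128) and 153 (66.7 and 77.9). Chaperone and protein quality control genes had 3 of 34 hosts (8.82%) with 1 summit each, 62.7 per Mb. These were atf-7, a bZIP factor gene (208, with 86.5 and 99.2), hsp-60, the mitochondrial chaperonin gene (148, with 60.9 and 93.9), and pdi-3, a disulfide isomerase gene (90.3, with 43.6 and 57.7). The pdi-3 region and the zfp-1 region at 153 were not in the thresholded lists of both replicates.

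Developmental transcription factor genes had 4 of 49 hosts (8.16%) and 22.4 summits per Mb, close to the 23.2 of all genes. They were fkh-7 (190.4, with 93.6 and 121 in the replicates), egl-27 (179, with 89.6 and 106), hlh-30, the TFEB gene (133, with 64.7 and 53.5), and unc-62. The listed ion channel and synaptic release genes had 4 of 43 hosts (9.30%) and 19.9 per Mb. The strongest summits in that list were in unc-31, a dense-core vesicle release gene (157, with 47.5 and 106), and in unc-103 (136, with 61.0 and 76.8, and 130, with 57.8 and 70.4). The other hosts were unc-2 and unc-64. The unc-31 region lay by the snRNA gene F07C6.5, and 50.6% of the 30-base stretches of its window occurred elsewhere. The regions in hlh-30 and unc-31 and the weaker of these 2 in unc-103 were not in the thresholded lists of both replicates.

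Muscle and cytoskeleton genes had 2 of 40 hosts (5.00%) and 13.6 per Mb, in unc-70, the beta-spectrin gene (180.1, with 108 and 90.1 in the replicates, by the snoRNA gene K11C4.6), and lev-11, the tropomyosin gene (94.8, with 48.0 and 46.6). Axon guidance and adhesion genes had 1 of 41 hosts (2.44%) and 2.48 per Mb, the lowest of the 8 lists, although their median of 4926 eligible bp per gene was well above the 696 bp of all genes. That host was unc-33, whose product organises microtubules in axons (94.2, with 43.3 and 63.9). The regions in lev-11 and unc-33 were not in the thresholded lists of both replicates.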

How the data were processed

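The deposited files are the authors' peak lists on ce11. Per the description files, the whole-series lists were derived from the alignments of both replicates and a control, while the sources used here do not name aligner or peak caller. The deposited score is the scaled global irreproducible discovery rate (830 to 1000 in the main list), and the deposited signal is a value of the peak caller on an unstated scale, used only to rank and describe. Sequencing depth is unknown, so intervals cover counting error only.

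From the lists, summits on 6 nuclear chromosomes were classed in the order promoter, tRNA, exon, intron, intergenic with the Ensembl 115 annotation, and 11 mitochondrial regions were left out. Each member took the shortest annotated intron over its summit. Replicate signals are those of the overlapping ranked region with the nearest summit. The tests were exact (scipy 1.17.1, Python 3.11.15), at a threshold of 0.05 after Benjamini-Hochberg adjustment where stated, and were tested on simulated data. Regions in 1 host or overlapping each other are not independent, and boxed regions that share recurring letters may not be. Named regions followed a rule: the 15 strongest in both replicates' lists, the 8 strongest with a box, hosts with 3 or more summits, the 3 strongest of each gene list, 3 on each side of the promoter limit, and the 6 strongest by non-coding genes. Of the 43 regions this named beside the hosts, 40 overlapped the other whole-series list. The members and lists were chosen with earlier results of these data known.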

Additional observations from a re-analysis of the deposited data

How the results depend on the processing

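The settings tried were the other whole-series list, each replicate's list alone, a score of 1000, both replicates' lists, a wider promoter window, deep introns, no overlapping regions, a 50 bp motif window and flanks at 1000 bp. Added after seeing the data were summits with no repeated 30-base stretch, summits away from non-coding genes, and chromosome III left out, each filtering both sides of a class comparison. Deep introns and no overlapping regions filtered the intronic side alone. No paired analysis was possible because both replicates belong to 1 group. The excess of the extended box and of CGCGC over flanks, and of the box over each other class, kept its direction and its call in every setting run. With 1 replicate's list alone, the box excess over flanks was 19.9 to 22.7 points, and its excess over promoters 17.8 to 19.9 points. Among summits with no repeated 30-base stretch the box was at 14.6% of intronic summits, and its excess was smaller. It was 12.1 points over flanks (17.5 in the main setting) and 11.0 over promoter summits (15.9). Over exonic summits it was 9.66 points (14.0) and over intergenic ones 7.51 (13.0). Unknown read depth limits all weaker regions.

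The number of members was 448 at a score of 1000, 209 in both replicates' lists, and 289 to 422 without a replicate. Their share of summits was 13.0% for deep introns, 16.3% in both lists and 15.5% with promoters from 1000 bp upstream. CCAAT over flanks was 9.76 points, no longer past the threshold, without repeated stretches. First minus later introns in box share was -6.05 points, and passed with deep introns (-10.2), a 50 bp window (-9.78), the other list (-6.83) and without chromosome III (-7.76). It shrank to -0.755 points without repeated stretches, and passed neither there nor in the remaining settings. Boxed minus unboxed in the top signal class was 4.93 points, and passed with deep introns (10.1) and away from non-coding genes (10.9). It reversed to -5.45 in both lists and -3.39 at a score of 1000. The share of nearest boxes on the host strand minus 50 was 1.06 points and reversed to -4.41 without repeated stretches, neither past the threshold. In share in both lists, intronic minus intergenic was -3.60 points and passed with deep introns (-5.94), the other list (-4.95), without chromosome III (-6.28) and away from non-coding genes (-6.51), and intronic minus promoter did not pass at a score of 1000 (-3.18). In the top signal class, intronic minus intergenic passed with deep introns (-6.02) and away from non-coding genes (-6.48), and reversed to 1.03 in both lists. Intronic minus promoter did not pass in both lists (-0.332), at a score of 1000 (-3.13), without repeated stretches (-4.68) or without replicate 1 (-5.58, with -7.36 without replicate 2). The cause of these changes was not tested.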
